A study of Homo sapiens with 5 samples.

Results

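Transcripts of 31 genes of the tricarboxylic acid (TCA) cycle, of glutamine and glutamate use and of branched-chain amino acid breakdown were examined in SVG-10B1 cells, a line of human astroglial origin. The genes were taken from a given list by their symbols, out of 57905 genes with counts, and 30 of the 31 had enough reads to be tested. The edited cells carried IDH1 R132H beside a wild-type allele (R132H/WT) and came as clone 2, with 1 library, and clone 6, with 2 libraries. Wild-type SVG-10B1 cells, which the labels number clone 1, gave 2 libraries. That number alone does not say whether they are an isolated clone or the parent line. Cells of every group grew in the same medium with fetal calf serum, and total RNA was sequenced. With clone 1 as the only wild-type source, a difference that goes with the edit and one that goes with a clone cannot be told apart. Nothing in the labels states that replicates were grown separately, so p-values measure only the spread between these libraries, which may be technical.

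The TCA cycle joins acetyl-CoA to oxaloacetate and oxidises the resulting citrate back to oxaloacetate, with 2-oxoglutarate as an intermediate that glutamate can also supply. IDH1 makes 2-oxoglutarate from isocitrate in the cytosol, and its R132H form instead turns 2-oxoglutarate into 2-hydroxyglutarate, the metabolite for which IDH-mutant gliomas are known. Branched-chain amino acids pass their amino group to 2-oxoglutarate through the BCAT transaminases, which 2-hydroxyglutarate is known to inhibit, and the remaining keto acids are oxidised in mitochondria. Gene counts hold no base calls and do not show the edit.

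Libraries held 14802585, 13572114 and 16559077 reads across clone 2 and clone 6 replicates 1 and 2, and 21881726 and 17603317 in wild-type replicates 1 and 2. The 31 genes took 0.269 to 0.307% of the reads in edited and 0.296 to 0.309% in wild-type libraries. Clone 2 and clone 6 replicate 1 were closer to each other than either labelled replicate pair. The standard deviation of their log2 differences over 10551 well-covered genes was 0.164, against 0.455 between the clone 6 replicates and 0.222 between the wild-type replicates. Clone labels were used as given, and whether they are right for these libraries was not tested, which bears on each comparison that separates clone 2 from clone 6. Ribosomal RNA took 0.417, 9.79 and 0.631% of reads in clone 2 and clone 6 replicates 1 and 2, against 7.23 and 2.24% in wild-type replicates 1 and 2. Of 12 astrocyte markers, 8 or 9 had reads in each library, AQP4 and FABP7 had none in any, and their summed level was 550 to 598 CPM (reads scaled to a common library size) in edited and 266 to 291 CPM in wild-type libraries. The markers did not move together: of 6 that were tested, GJA1 and CLU rose, NFIA fell and the list's median log2 fold change was -0.061. GJA1, a gap junction gene, had 363, 352 and 452 CPM across clone 2 and clone 6 replicates 1 and 2, against 168 and 156 CPM across wild-type replicates 1 and 2, and made up most of the sum. NFIA, a transcription factor, had 0.516, 0.843 and 0.500 CPM in edited libraries in that order, against 4.99 and 3.41 CPM in wild type. Summed fibroblast and pericyte markers, of which 8 to 10 of 10 had reads, came to 1750, 1790 and 571 CPM across clone 2 and clone 6 replicates 1 and 2, against 2180 and 1930 CPM across wild-type replicates 1 and 2. The sum hides mixed markers: of 8 tested, 1 rose and 4 fell, where 7.64% of all tested genes rose and 9.49% fell. Their median log2 differences from the wild-type mean were -0.55, -1.0 and -2.0 in the same edited libraries. The 9 neuron markers, 7 or 8 of them with reads, summed to 23.0 to 25.3 CPM in edited and 11.1 and 11.3 CPM in wild-type libraries, with STMN2 at 0 reads in each. The 6 endothelial markers, 4 to 6 of them with reads, summed to 9.13 to 13.2 CPM in edited and 36.4 and 40.7 CPM in wild-type libraries. The 6 microglia and macrophage markers, 2 to 4 of them with reads and CX3CR1 with none, summed to 0.813 to 1.29 CPM in edited and 1.60 and 2.36 CPM in wild-type libraries. The 7 oligodendrocyte markers summed to 104 to 146 CPM in edited and 148 CPM in each wild-type library, with 4 markers detected and MOG, OLIG1 and OLIG2 at 0. Of 3 oligodendrocyte markers tested, 1 rose and 1 fell. The part of these markers and of ribosomal RNA in the results that follow was not tested. Bulk counts do not separate fewer cells of a type from less RNA per cell.

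Promoters are shown for 4 genes that differed between the genotypes and for SDHA, whose level did not differ beyond its error. RefSeq sequences of build GRCh38.p14 were matched for 27 of the 31 genes (not for OGDH, SDHC, PRODH and BCAT2) and are given 5′ to 3′ on the strand of the gene, as the 250 bases before its annotated start. Capitals mark the core of the motif of NRF1, a regulator of nuclear genes for mitochondrial proteins, and the letters CCGGAAGT, a core of the motif of the ETS factor GABPA, both searched on both strands. DLAT (chr11:112025158-112025407, plus strand) and SDHD (chr11:112086623-112086872, plus strand) lie close together and were lower in the edited clones, as was SUCLA2 (chr13:48001274-48001523, minus strand). DBT (chr1:100249835-100250084, minus strand) was higher, and SDHA (chr5:218070-218319, plus strand) is the comparison.
DLAT: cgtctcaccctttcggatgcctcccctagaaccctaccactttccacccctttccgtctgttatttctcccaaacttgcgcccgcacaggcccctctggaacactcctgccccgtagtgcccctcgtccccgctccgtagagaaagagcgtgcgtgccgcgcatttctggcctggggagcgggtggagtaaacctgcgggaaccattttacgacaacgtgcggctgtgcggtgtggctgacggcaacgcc
SDHD: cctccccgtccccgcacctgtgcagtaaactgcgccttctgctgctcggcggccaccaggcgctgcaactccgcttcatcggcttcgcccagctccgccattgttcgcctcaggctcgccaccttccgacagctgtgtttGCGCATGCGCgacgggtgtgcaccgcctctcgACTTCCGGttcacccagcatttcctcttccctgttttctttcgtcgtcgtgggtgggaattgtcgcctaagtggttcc
SUCLA2: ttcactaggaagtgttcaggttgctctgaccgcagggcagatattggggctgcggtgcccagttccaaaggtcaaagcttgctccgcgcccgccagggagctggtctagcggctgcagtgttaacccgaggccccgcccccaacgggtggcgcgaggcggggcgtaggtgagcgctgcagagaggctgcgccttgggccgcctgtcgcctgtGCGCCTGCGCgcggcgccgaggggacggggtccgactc
DBT: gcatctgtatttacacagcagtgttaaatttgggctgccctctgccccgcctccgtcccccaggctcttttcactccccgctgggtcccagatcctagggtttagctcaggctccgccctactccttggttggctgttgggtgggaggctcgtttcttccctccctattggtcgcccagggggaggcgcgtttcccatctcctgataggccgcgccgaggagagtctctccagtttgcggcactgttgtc
SDHA: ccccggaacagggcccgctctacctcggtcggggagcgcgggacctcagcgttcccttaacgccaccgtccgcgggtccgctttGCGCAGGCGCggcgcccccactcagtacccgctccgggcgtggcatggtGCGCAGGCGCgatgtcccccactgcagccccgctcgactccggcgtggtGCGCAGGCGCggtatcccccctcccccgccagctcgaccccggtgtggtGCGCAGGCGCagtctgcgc
The NRF1 core stood in 5 of the 27 promoters (18.5%), those of SUCLA2, SDHA, SDHD, GLUD1 and SLC25A11, and in 5.53% of 27305 promoters of the same length. The GABPA letters stood in those of DLST, SDHD and MDH2 (11.1%), against 3.64% of all, and the letters TCAAGGTCA, an ESRRA motif, in 0 of 27, against 0.319%. Promoters with the NRF1 core belonged to genes that were lower in edited cells (SUCLA2, SDHD) and to genes that were not called (SDHA, GLUD1, SLC25A11). The promoters of all genes were not matched to those of the list for base composition or expression, so a higher share cannot be read as particular to the list. The letters are a description of the sequence and not a measured site.

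The comparison of 3 edited with 2 wild-type libraries asked which of these transcripts differ with the genotype. Of the 30 tested genes, 6 rose and 5 fell at a Benjamini-Hochberg adjusted p below 0.05 in edgeR's quasi-likelihood test over all 16471 tested genes. This was 36.7% of the 30, against 17.1% of all tested genes, with 20% higher against 7.64% and 16.7% lower against 9.49%. The shares were not matched for coverage: 28 of the 30 were well covered, as were 10551 of the 16471. The calls are also not independent, since DLAT and SDHD lie close together. The changes were small: 1 of the 11 reached 2-fold, and the median log2 fold change of the 30 was 0.039, against 0.025 for all tested genes. Without wild-type replicate 1 none of the 11 was called (adjusted p 0.0555 to 0.222), nor without wild-type replicate 2 (0.065 to 0.244). With the clone 2 and clone 6 replicate 1 libraries summed into 1, SUCLA2, BCAT2 and DBT were called. Without clone 2 alone, BCAT2 and DBT were called, and without clone 6 replicate 1 alone, SUCLA2, SDHB, BCAT2 and DBT. Without clone 6 replicate 2 the calls grew to 9 higher and 8 lower. Those over all genes grew from 2822 to 5971 in the same fit, so the growth was not particular to the list. The edited libraries left in it, clone 2 and clone 6 replicate 1, were the closest pair of all (SD of log2 differences 0.164). The calls of PDHA1, SUCLG2, MDH2, GLUD1, GOT1 and SLC25A22, given below, were added in that fit. Their fold changes moved as well, from -0.53 to -1.02 on the log2 scale for SUCLG2 and from 0.78 to 0.31 for GOT1. They grew in size for PDHA1, SUCLG2, MDH2 and SLC25A22 and shrank for GLUD1 and GOT1. What part the narrow spread had in these calls was not tested. Clone 2 and clone 6 replicate 1 may not act as separate replicates.

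**Figure D1:**
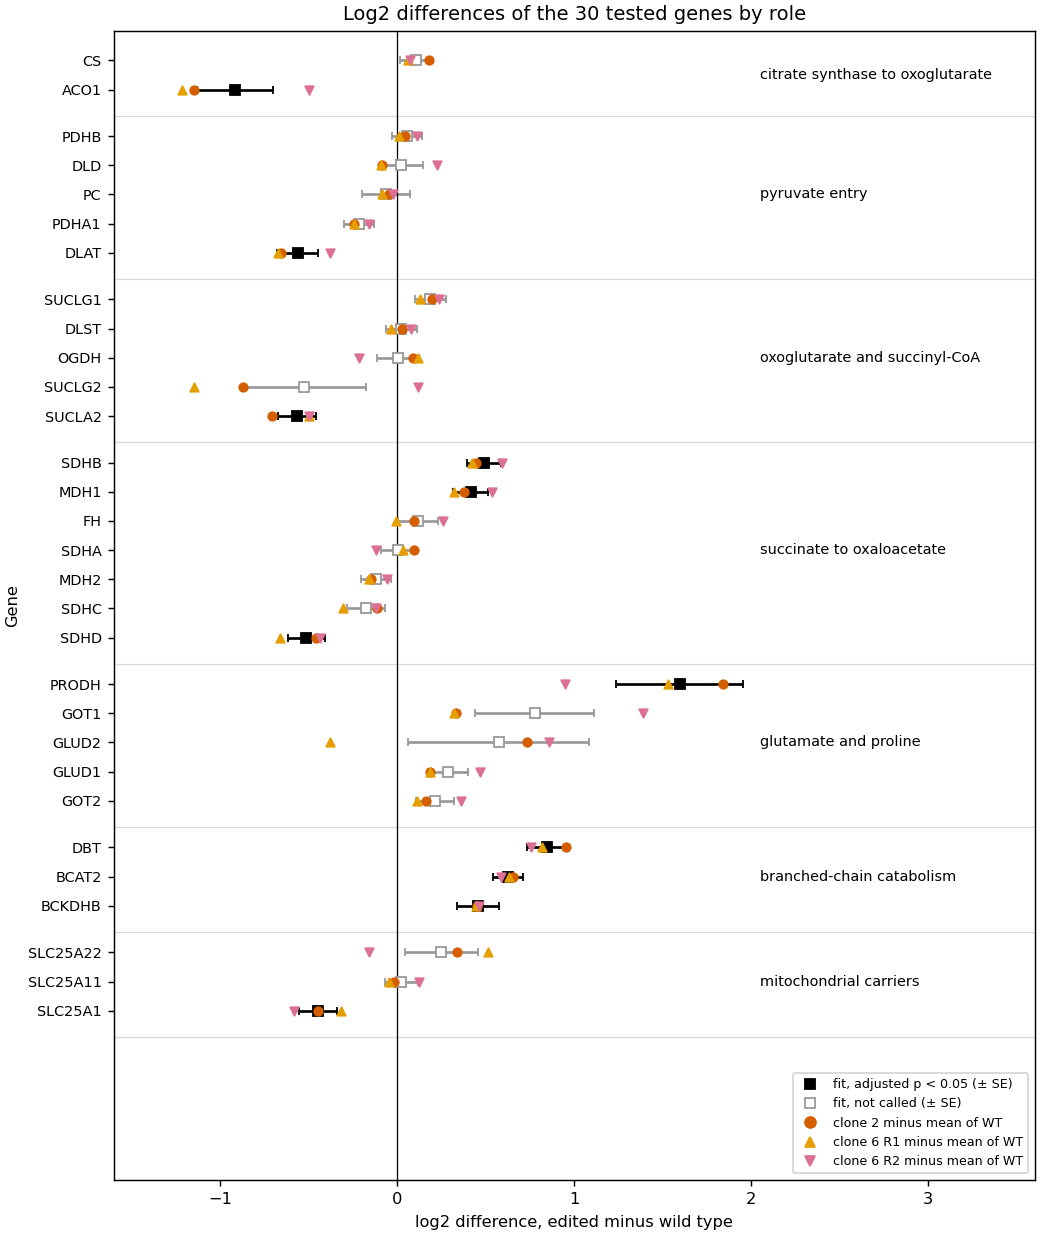
Log2 differences (edited minus wild type, x axis) of the 30 tested genes, grouped by role (y axis). Squares are fitted log2 fold changes with their SE, filled where the adjusted p was below 0.05, and coloured symbols are single edited libraries minus the wild-type mean of log2 CPM. All 3 tested branched-chain genes lie right of 0 with tight libraries, whereas GOT1 and SUCLG2 are spread by clone 6 replicate 2.

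Of the 4 branched-chain genes among the 31, 3 could be tested and all 3 rose, with a median log2 fold change of 0.62. Of all tested genes 7.64% rose, and 3 genes are too few to read as a result about the pathway. In a further list of 22 genes of the same breakdown, described at the end, 3 rose and 1 fell, with a median of 0.083. DBT (ENSG00000137992, chromosome 1), the acyltransferase core of the branched-chain keto acid dehydrogenase, had 49.9, 45.5 and 43.5 CPM across clone 2 and clone 6 replicates 1 and 2, against 26.9 and 24.6 CPM in wild-type replicates 1 and 2. Each edited library lay above both wild-type libraries, with means of 46.3 ± 3.31 CPM in edited (SD, n = 3) and 25.8 ± 1.66 CPM in wild-type libraries (SD, n = 2). The log2 fold change was 0.84 (SE 0.114, edgeR adjusted p = 0.00484), the lowest adjusted p of the 30. The 40 genes next to DBT on the chromosome had a median of 0.68, with 20 of them called higher, as described below. BCAT2 (ENSG00000105552, chromosome 19), the mitochondrial transaminase that takes the amino group off leucine, isoleucine and valine, had 78.96, 77.8 and 75.4 CPM across clone 2 and clone 6 replicates 1 and 2, against 50.9 and 49.6 CPM in wild-type replicates 1 and 2. Its libraries were tight within each genotype and did not overlap between them (log2 fold change 0.62, SE 0.0853, edgeR adjusted p = 0.00505). BCKDHB (ENSG00000083123, chromosome 6), the beta subunit of the decarboxylase of the same complex, had 17.7, 17.6 and 17.8 CPM in the edited libraries in that order, against 13.4 and 12.4 CPM in wild type. The edited values were nearly equal and all above wild type (log2 fold change 0.45, SE 0.119, edgeR adjusted p = 0.044). BCKDHB also lost its call without a filter on low counts and once the ribosomal RNA share was a covariate.

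The alpha subunit of that decarboxylase, BCKDHA (ENSG00000248098, chromosome 19), had 3, 6 and 4 reads across clone 2 and clone 6 replicates 1 and 2, and 2 and 7 in wild-type replicates 1 and 2, too few to test. In GENCODE 29, an annotation of GRCh38 and not necessarily the one used for counting, 64.6% of its exon bases also belonged to AC011462.1, a gene on the same strand. The part of this overlap in the low count was not tested. DLD, the dihydrolipoyl dehydrogenase that this complex shares with the pyruvate and 2-oxoglutarate dehydrogenases, had 74.7, 74.3 and 92.6 CPM in edited libraries, against 81.7 and 77.0 CPM in wild type. Its genotypes overlapped (log2 fold change 0.02, SE 0.123, edgeR adjusted p = 0.923).

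**Figure D2:**
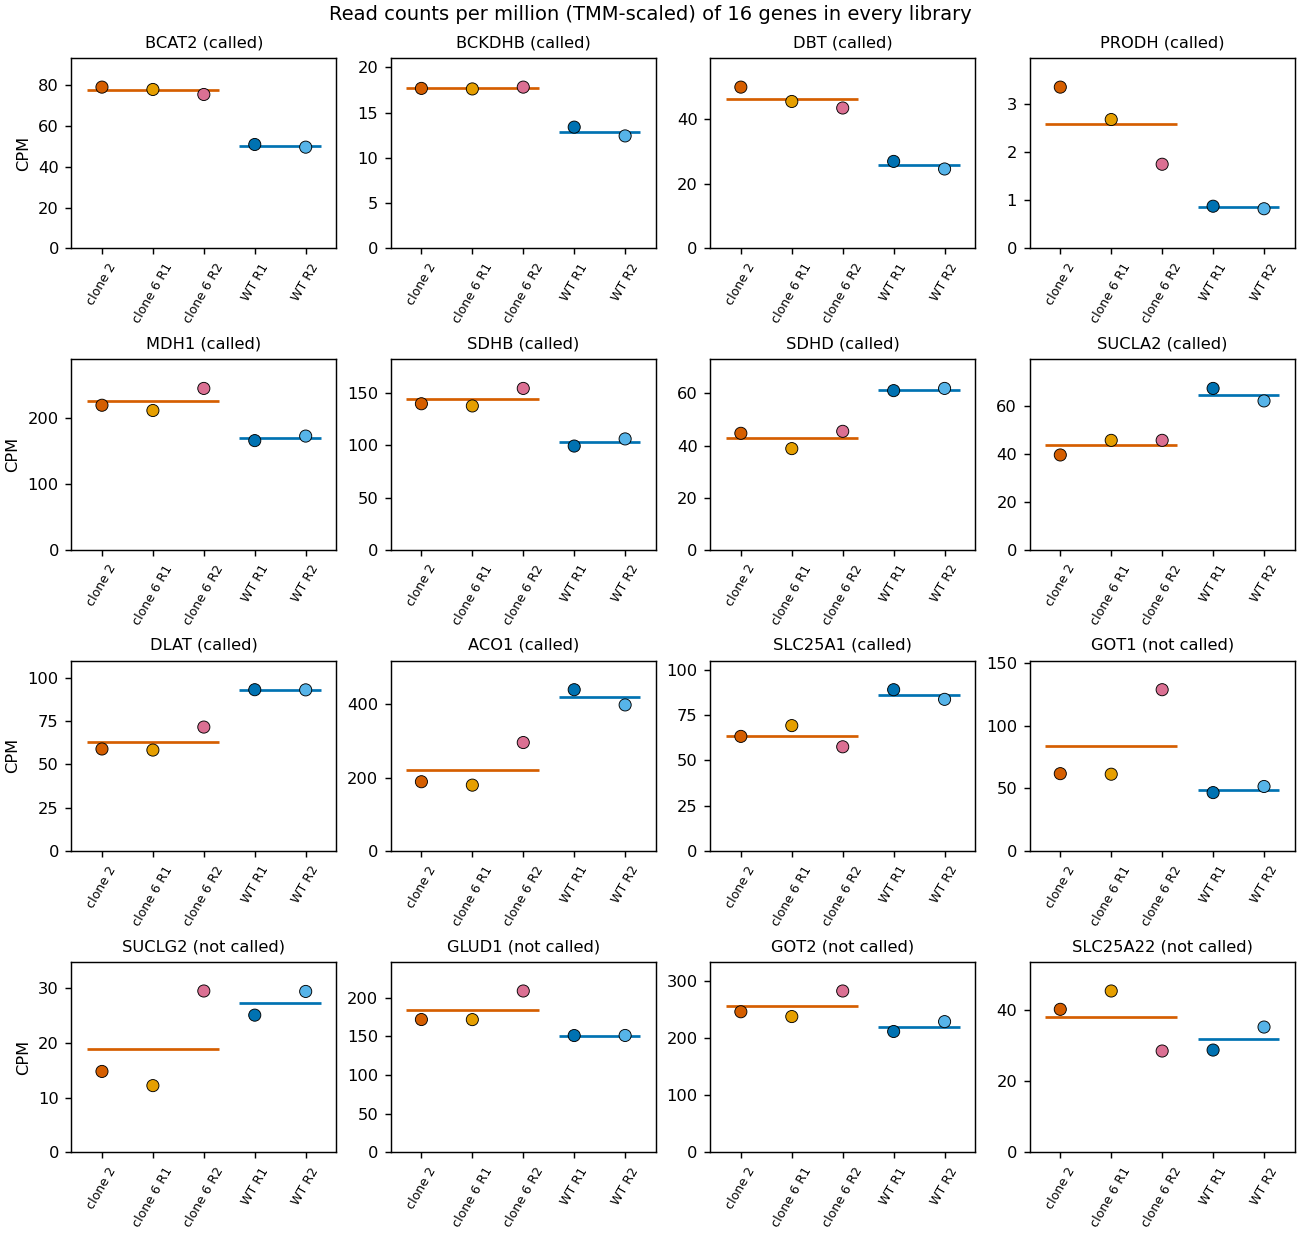
CPM on TMM-scaled library sizes (y axis, from 0) in each library (x axis) for the 11 called genes and 5 that were not called. Points are single libraries and lines are means of the 3 edited and the 2 wild-type libraries. DBT and BCAT2 separate the genotypes in every library, while GOT1 reached 129 CPM in clone 6 replicate 2 alone.

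At the entry of pyruvate, DLAT fell while its partners in the pyruvate dehydrogenase complex did not pass the test. DLAT (ENSG00000150768, chromosome 11), the acetyltransferase core, had 58.9, 58.3 and 71.6 CPM across clone 2 and clone 6 replicates 1 and 2, against 93.1 and 93.0 CPM in wild-type replicates 1 and 2. Every edited library was below wild type, with clone 6 replicate 2 the nearest (log2 fold change -0.56, SE 0.115, edgeR adjusted p = 0.0195). PDHA1, the alpha subunit of the decarboxylase, had 131 to 139 CPM in edited and 153 and 158 CPM in wild-type libraries without overlap (log2 fold change -0.22, SE 0.0834, edgeR adjusted p = 0.122). Without clone 6 replicate 2 PDHA1 was called lower as well (log2 fold change -0.26, edgeR adjusted p = 0.00674). The beta subunit PDHB averaged 77.6 ± 2.92 CPM in edited (SD, n = 3) and 74.7 ± 0.552 CPM in wild-type libraries (SD, n = 2). Pyruvate carboxylase, PC, which makes oxaloacetate, averaged 25.4 ± 0.58 CPM in edited (SD, n = 3) and 26.5 ± 4.48 CPM in wild-type libraries (SD, n = 2). The log2 fold changes of PDHB and PC were 0.06 (SE 0.0856) and -0.06 (SE 0.135).

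In the first steps of the cycle ACO1 showed the largest fall of the list, beside a citrate synthase whose levels differed little. ACO1 (ENSG00000122729, chromosome 9) encodes the cytosolic aconitase, which without its iron-sulfur cluster acts as an iron regulatory protein. It had 189, 179.7 and 296 CPM across clone 2 and clone 6 replicates 1 and 2, against 440.0 and 399 CPM in wild-type replicates 1 and 2. All edited values were lower, and clone 6 replicate 2 stood between the other edited libraries and wild type. The log2 fold change was -0.92 (SE 0.215, edgeR adjusted p = 0.03), and -1.20 without clone 6 replicate 2. CS, citrate synthase, averaged 157 ± 7.47 CPM in edited (SD, n = 3) and 146 ± 3.56 CPM in wild-type libraries (SD, n = 2), with 0.10 as its log2 fold change (SE 0.0872, edgeR adjusted p = 0.455).

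From 2-oxoglutarate to succinate, SUCLA2 fell and the dehydrogenase genes were not called. OGDH and DLST, the decarboxylase and the succinyltransferase core of the 2-oxoglutarate dehydrogenase, had log2 fold changes of 0.00 (SE 0.121) and 0.02 (SE 0.0873). OGDH had 115.6, 117.6 and 93.6 CPM across clone 2 and clone 6 replicates 1 and 2, against 109.8 and 107.6 CPM in wild-type replicates 1 and 2, so the edited libraries lay on both sides of wild type. SUCLA2 (ENSG00000136143, chromosome 13), the ADP-specific beta subunit of succinyl-CoA synthetase, had 39.6, 45.7 and 45.7 CPM in the edited libraries in that order, against 67.3 and 62.1 CPM in wild type. The groups did not overlap (log2 fold change -0.57, SE 0.107, edgeR adjusted p = 0.0149). SUCLG2, the GDP-specific beta subunit, had 14.8 and 12.2 CPM in clone 2 and clone 6 replicate 1, but 29.5 CPM in clone 6 replicate 2, against 25.1 and 29.4 CPM in wild type. Clone 6 replicate 2 thus lay at the wild-type level, and SUCLG2 was not called (log2 fold change -0.53, SE 0.352, edgeR adjusted p = 0.346). Without that library its log2 fold change was -1.02 (edgeR adjusted p = 0.000191). The shared alpha subunit SUCLG1 averaged 81.2 ± 2.95 CPM in edited (SD, n = 3) and 71.4 ± 1.39 CPM in wild-type libraries (SD, n = 2), with a log2 fold change of 0.19 (SE 0.0861, edgeR adjusted p = 0.188).

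Among the 4 subunits of succinate dehydrogenase, 1 rose, 1 fell and the other two were not called. SDHB (ENSG00000117118, chromosome 1), the iron-sulfur subunit, had 139.9, 138 and 155 CPM across clone 2 and clone 6 replicates 1 and 2, against 99.4 and 106 CPM in wild-type replicates 1 and 2. SDHD (ENSG00000204370, chromosome 11), a membrane anchor, had 44.7, 38.8 and 45.5 CPM in the edited libraries in that order, against 61.1 and 62.0 CPM in wild type. Neither gene overlapped between genotypes, and their log2 fold changes had opposite signs, 0.49 for SDHB (SE 0.0959, edgeR adjusted p = 0.0175) and -0.52 for SDHD (SE 0.105, edgeR adjusted p = 0.0194). Per kilobase of annotated exon, the ratio of SDHB to SDHD was 3.61, 4.09 and 3.92 in the edited libraries, against 1.87 and 1.98 in wild type. SDHA, the flavoprotein subunit, averaged 189 ± 14.1 CPM in edited (SD, n = 3) and 189 ± 6.17 CPM in wild-type libraries (SD, n = 2), with 0.00 as its log2 fold change (SE 0.0967). The other anchor SDHC had 32.9 to 37.6 CPM in edited and 40.6 and 40.8 CPM in wild-type libraries (log2 fold change -0.18, SE 0.107, edgeR adjusted p = 0.298). Pseudogene copies of SDHA had few reads, with 126, 119 and 94 for SDHAP1 and 5, 2 and 6 for SDHAP3 in edited, against 213 and 117 and 8 and 4 in wild-type libraries. SDHDP6 had 1 read, in clone 2, and SDHAP2 had none.

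Fumarase and malate dehydrogenase complete the cycle. FH, fumarase, averaged 122 ± 11.5 CPM in edited (SD, n = 3) and 113 ± 10.7 CPM in wild-type libraries (SD, n = 2), overlapping between genotypes. MDH1 (ENSG00000014641, chromosome 2), the cytosolic malate dehydrogenase of the malate-aspartate shuttle, had 219.8, 212 and 245 CPM across clone 2 and clone 6 replicates 1 and 2, against 166 and 173 CPM in wild-type replicates 1 and 2. All edited libraries were higher (log2 fold change 0.41, SE 0.0981, edgeR adjusted p = 0.0314). MDH2, the mitochondrial form, had 169 to 181 CPM in edited and 188 and 189.5 CPM in wild-type libraries (log2 fold change -0.12, SE 0.0835, edgeR adjusted p = 0.361). MDH2 was called without clone 6 replicate 2 (log2 fold change -0.17, edgeR adjusted p = 0.0424). Per kilobase of exon, the ratio of MDH1 to MDH2 was 0.944, 0.915 and 0.988 in edited libraries and 0.639 and 0.673 in wild type. The ratios given here and elsewhere were chosen after the levels had been seen and carry no test. MDH1 lost its call once the ribosomal RNA share was a covariate.

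Of 5 genes of glutamate and proline use, PRODH rose and none fell. PRODH (ENSG00000100033, chromosome 22), the mitochondrial proline dehydrogenase, was scarce, with 52, 35 and 28 reads across clone 2 and clone 6 replicates 1 and 2, against 19 and 15 in wild-type replicates 1 and 2. In CPM this was 3.36, 2.68 and 1.75 in edited libraries, against 0.878 and 0.825 in wild type. The lowest edited value was still above wild type (log2 fold change 1.59, SE 0.36, edgeR adjusted p = 0.0271). PRODH lost its call in the same fit as MDH1. The glutamate dehydrogenase GLUD1, which makes 2-oxoglutarate from glutamate, had 171.7, 171.6 and 209 CPM in edited libraries, against 151.0 and 151.1 CPM in wild type. The libraries did not overlap, but the gene was not called (log2 fold change 0.28, SE 0.114, edgeR adjusted p = 0.136). GLUD1 was called without clone 6 replicate 2 (log2 fold change 0.17, edgeR adjusted p = 0.0406). Its retrocopy GLUD2 had 15, 5 and 17 reads in edited and 14 and 8 in wild-type libraries. The transcripts of GLUD1 and GLUD2 were 96.8% identical over 2488 aligned bases, with a longest identical run of 302 bases, so the division of reads between them is uncertain. The pseudogene GLUD1P3 had 14, 15 and 12 reads in edited and 25 and 31 in wild-type libraries, GLUD1P2 had 3 in clone 6 replicate 2 and 1 in wild-type replicate 1, and GLUD1P4 had 1 in wild-type replicate 2.

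The aspartate transaminases interconvert glutamate and 2-oxoglutarate, GOT1 in the cytosol and GOT2 in mitochondria. GOT1 had 61.9 and 61.4 CPM in clone 2 and clone 6 replicate 1 and 129 CPM in clone 6 replicate 2, against 46.7 and 51.6 CPM in wild-type replicates 1 and 2. Every edited library was higher, but clone 6 replicate 2 was set far apart from the other two, and the gene was not called (log2 fold change 0.78, SE 0.335, edgeR adjusted p = 0.161). Without that library GOT1 was called at a smaller log2 fold change of 0.31 (edgeR adjusted p = 0.0115). GOT2 had 246, 238 and 283 CPM in edited libraries, against 212 and 229 CPM in wild type (log2 fold change 0.21, SE 0.107, edgeR adjusted p = 0.217). Per kilobase of exon, the ratio of GOT1 to GOT2 was 0.281, 0.289 and 0.510 in edited libraries and 0.247 and 0.252 in wild type. In GENCODE 29, 19.3% of the exon bases of GOT1 were overlapped on the other strand, mainly by AL391684.1, and no source used here states whether counting used strand. The same held for PDHA1 (21.3%, mainly MAP3K15), GLUD1 (13.2%, SHLD2), SLC25A22 (10.8%, PANO1) and PC (10.5%, LRFN4). Other genes overlapped 12.2% of the exon bases of SDHD, mainly AP002884.3 on the same strand. Smaller overlaps are not listed, and the part of any overlap in the counts was not tested.

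Of the 3 mitochondrial carriers, SLC25A1 fell. SLC25A1 (ENSG00000100075, chromosome 22), which exports citrate, had 63.3, 69.2 and 57.5 CPM across clone 2 and clone 6 replicates 1 and 2, against 89.1 and 83.7 CPM in wild-type replicates 1 and 2. Its genotypes did not overlap (log2 fold change -0.45, SE 0.106, edgeR adjusted p = 0.031), and it too lost its call once ribosomal RNA was a covariate. SLC25A11, the carrier that exchanges 2-oxoglutarate for malate, averaged 92.7 ± 6.05 CPM in edited (SD, n = 3) and 91.4 ± 2.22 CPM in wild-type libraries (SD, n = 2). The glutamate carrier SLC25A22 had 40.3 and 45.4 CPM in clone 2 and clone 6 replicate 1 and 28.5 CPM in clone 6 replicate 2, against 28.8 and 35.3 CPM in wild type. Clone 6 replicate 2 fell on the other side of wild type from its labelled replicate, and the carrier was not called (log2 fold change 0.25, SE 0.208, edgeR adjusted p = 0.455). Without that library it was called (log2 fold change 0.41, edgeR adjusted p = 0.0169).

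**Figure D3:**
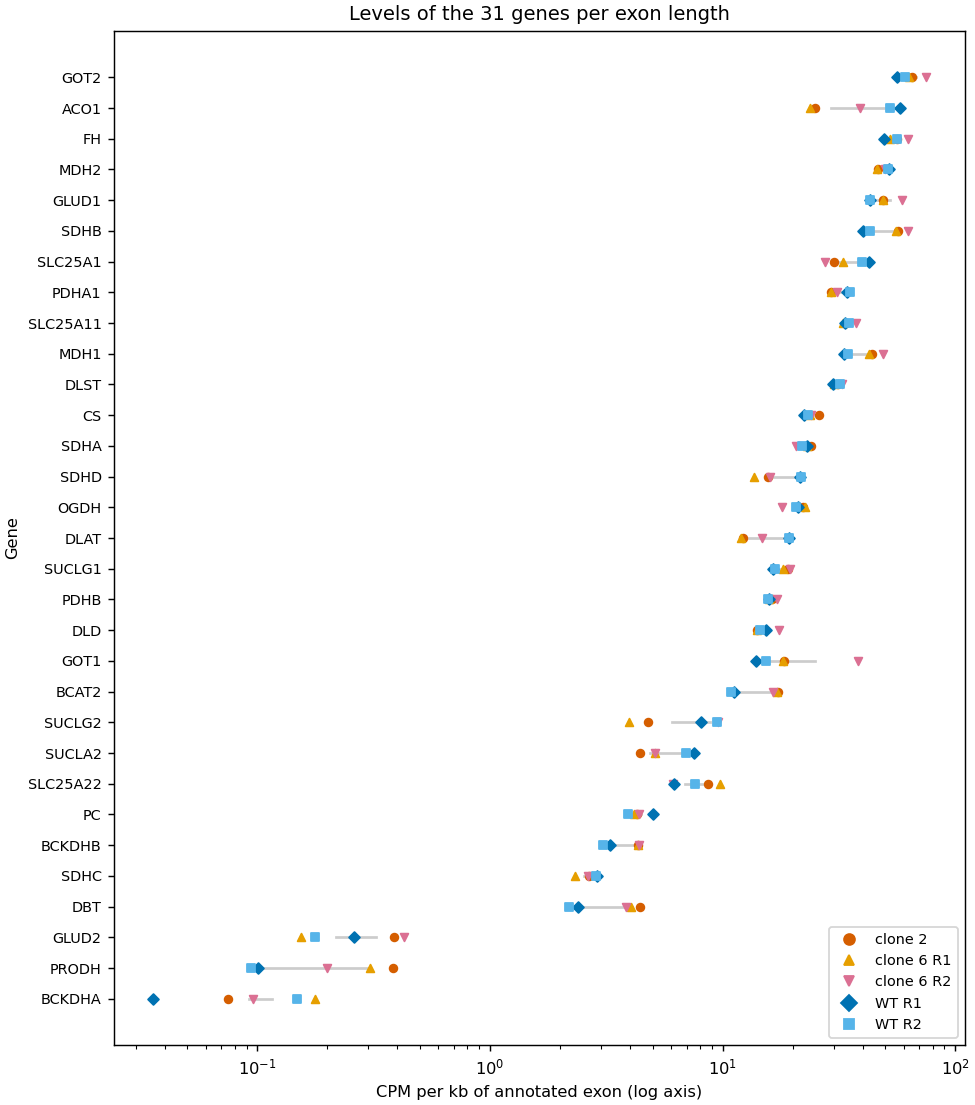
CPM per kilobase of exon annotated in GENCODE 29 (x axis, log scale) for all 31 genes (y axis), ordered by the wild-type mean. Symbols are single libraries and grey lines join the edited and wild-type means. GOT2 was highest in both genotypes, and GLUD2, PRODH and BCKDHA lay far below the rest.

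Divided by exon length, levels can be set beside each other across genes only roughly. The length counts the exons of every annotated transcript of a gene, whichever is expressed, and was 8928 bases for SUCLA2 and 3090 for SUCLG2. Ranks and the size of ratios between genes therefore depend on the annotation, while differences of a gene or ratio between libraries do not. GOT2 was highest, with means of 67.9 CPM per kilobase in edited and 58.5 CPM per kilobase in wild-type libraries. ACO1 stood at rank 11 of 31 in edited and at rank 2 in wild-type libraries, with 29.3 against 55.5 CPM per kilobase. SDHB stood at rank 2 in edited and at rank 6 in wild-type libraries, with 58.5 against 41.8 CPM per kilobase. The BCKDH genes were among the low ones even where they rose, with DBT at 4.10 CPM per kilobase in edited and 2.28 in wild-type libraries and BCKDHB at 4.35 in edited and 3.17 in wild-type libraries. The ratio of DBT to DLAT, the cores of 2 related complexes, was 0.362, 0.334 and 0.260 in edited libraries, against 0.124 and 0.113 in wild type. The ratio of SUCLG2 to SUCLA2 was 1.08, 0.771 and 1.86 in edited libraries, against 1.07 and 1.37 in wild type, so clone 6 replicate 2 lay above and clone 6 replicate 1 below both wild-type libraries.

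Of the 30 tested genes, 11 were higher and 8 lower in all 3 edited libraries than in both wild-type libraries. These shares of 36.7 and 26.7% compare with 26.1 and 25.3% of all tested genes. The 11 called genes were among the 19, and the other 8 were CS, PDHA1, SUCLG1, SDHC, MDH2, GLUD1, GOT1 and GOT2. Clone 2 and clone 6 replicate 1 lay within 0.1 of each other on the log2 scale for 19 of the 30, and the clone 6 replicates did so for 7. The clone 6 replicates differed by more than the wild-type replicates for 25 of the 30.

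Each clone was also set against wild type, with a spread shared by all 3 groups. Both comparisons use the same wild-type libraries and are therefore not independent. In clone 6, DBT and BCAT2 were called of the 30 (6.67%, against 8.98% of all genes tested, of which 3.87% higher and 5.11% lower), with log2 fold changes of 0.79 (SE 0.138, edgeR adjusted p = 0.022) and 0.61 (SE 0.12, edgeR adjusted p = 0.0302). In clone 2, DBT was called (3.33%, against 3.81% of all, of which 1.65% higher and 2.16% lower), at a log2 fold change of 0.95 (SE 0.163, edgeR adjusted p = 0.0332), while BCAT2 was at 0.65 (SE 0.143, edgeR adjusted p = 0.0635). These shares are near those of all genes. Neither clone had a called gene of the list without wild-type replicate 1 or without wild-type replicate 2. Leaving out a clone 6 replicate instead left each clone with 1 library, and more genes of the list were then called in both clones. The share of all genes called in those fits is not given, so the rise cannot be read as particular to the list.

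The difference between the clones was tested directly, clone 2 over clone 6. No gene of the 30 was called by edgeR's quasi-likelihood test or by DESeq2, and 0 of 30 had an unadjusted edgeR p below 0.05. Over all genes edgeR called 0% of 16471, and 114 had an unadjusted p below 0.05, where that threshold alone would give 824. The spread in this test comes largely from the clone 6 replicates, which differed more from each other than clone 6 replicate 1 did from clone 2. The absence of calls therefore does not show that the clones are alike. Without clone 6 replicate 1 the comparison is of 1 library with 1 library, with the spread taken from the wild-type pair, and so restates how far clone 6 replicate 2 lay from clone 2. In that fit ACO1 was at a log2 fold change of -0.65, SUCLG2 at -0.995 and GOT1 at -1.06. PRODH, which had few reads, was at 0.94 in the other direction.

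Several of the changed genes lie in stretches of chromosome whose other genes shifted by a similar amount. For each gene the 20 tested genes on either side were taken, in the gene order of GENCODE 29. DBT had a log2 fold change of 0.84, and its 40 neighbours on chromosome 1 had a median of 0.68, with 38 of them above 0 and 20 called higher. SUCLA2 was at -0.57 and its 40 neighbours on chromosome 13 at a median of -0.54, with 38 below 0 and 17 called lower. DLAT was at -0.56 and its neighbours on chromosome 11 at -0.49, with 35 of 40 below 0 and 19 called lower. SDHD, close to DLAT and sharing most of those neighbours, was at -0.52 and its neighbours at -0.51, and the 3 tested genes between them were at -0.57 to -0.33. These 4 genes lay within 0.2 of their neighbours' median on the log2 scale.

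**Figure D4:**
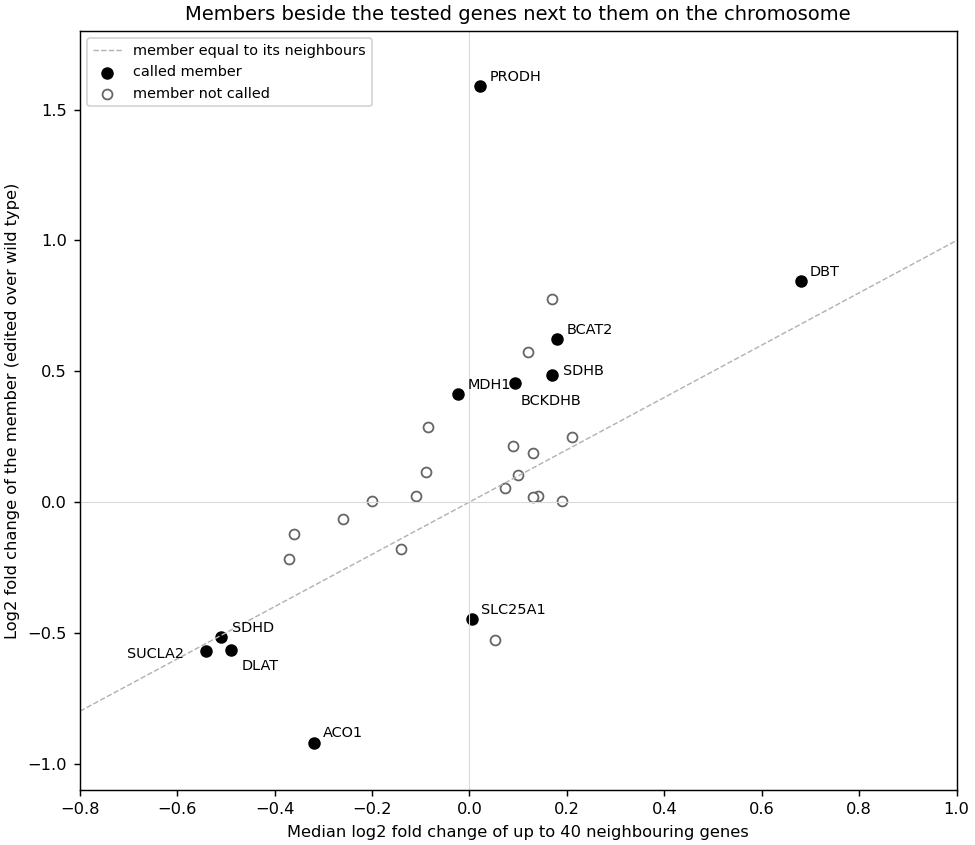
Log2 fold change of each tested gene (edited over wild type, y axis) against the median of up to 40 tested genes next to it on the chromosome (x axis). Filled points were called, open points were not, and the dashed line marks equal values. DBT, SUCLA2, DLAT and SDHD lie near the line, and the other 7 called genes lie at least 0.3 from it.

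Medians were similar in the single edited libraries. DBT's neighbours were at 0.70, 0.58 and 0.71 across clone 2 and clone 6 replicates 1 and 2, relative to the wild-type mean. Those of SUCLA2 were at -0.59, -0.58 and -0.43, those of DLAT at -0.46, -0.50 and -0.42 and those of SDHD at -0.49, -0.57 and -0.50, in the same order. With 10 or 50 genes on each side the median was 0.80 and 0.68 for DBT, -0.57 and -0.45 for SUCLA2, -0.51 and -0.52 for DLAT and -0.54 and -0.52 for SDHD. The other 7 called genes lay at least 0.3 from their neighbours' median. BCAT2 was at 0.62 against 0.18, MDH1 at 0.41 against -0.02, SDHB at 0.49 against 0.17 and BCKDHB at 0.45 against 0.09. PRODH was at 1.59 against 0.02, SLC25A1 at -0.45 against 0.01 and ACO1 at -0.92 against -0.32. For SDHB the median was -0.08 with 10 genes on each side. Among genes that were not called, PDHA1 and MDH2 lay above the medians of their neighbours, at -0.22 against -0.37 and at -0.12 against -0.36. The cause of these shared shifts was not tested.

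Further genes of the same pathways came from lists drawn up apart from the 31. Of 79 such genes, 74 were tested, 9 rose and 3 fell, which is 16.2%, against 17.1% of all tested genes. Of 13 further TCA cycle enzymes and assembly factors, 2 rose and 0 fell. LIAS, which makes the lipoyl group used by DLAT, DLST and DBT, had 15.8, 16.8 and 21.0 CPM across clone 2 and clone 6 replicates 1 and 2, against 8.32 and 9.30 CPM in wild-type replicates 1 and 2. It was higher in every edited library (log2 fold change 1.02, SE 0.171, edgeR adjusted p = 0.0101). OGDHL, a relative of OGDH, averaged 2.49 ± 0.567 CPM in edited (SD, n = 3) and 0.982 ± 0.377 CPM in wild-type libraries (SD, n = 2), at an edgeR adjusted p of 0.0473.

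Of 13 tested genes of pyruvate entry and exit, MPC2 rose and PDK3 fell. MPC2, a subunit of the mitochondrial pyruvate carrier, averaged 45.7 ± 4.85 CPM in edited (SD, n = 3) and 31.7 ± 0.0485 CPM in wild-type libraries (SD, n = 2). PDK3, a kinase that inactivates pyruvate dehydrogenase, averaged 14.8 ± 1.96 CPM in edited (SD, n = 3) and 22.7 ± 2.01 CPM in wild-type libraries (SD, n = 2). Their log2 fold changes were 0.53 (SE 0.121, edgeR adjusted p = 0.0282) and -0.61 (SE 0.152, edgeR adjusted p = 0.0364).

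Of 19 tested genes of glutamine, glutamate and proline, 3 rose and 1 fell. SLC1A1, a plasma membrane glutamate transporter, had 11.8, 12.6 and 8.19 CPM across clone 2 and clone 6 replicates 1 and 2, against 1.85 and 1.93 CPM in wild-type replicates 1 and 2. It showed the largest difference of the 74 tested genes (log2 fold change 2.52, SE 0.252, edgeR adjusted p = 0.00178). GLUL, the glutamine synthetase, had 37.2, 35.2 and 32.2 CPM in edited libraries, against 73.3 and 70.7 CPM in wild type, and fell by 1.05 on the log2 scale (SE 0.1, edgeR adjusted p = 0.00151). ALDH5A1, which oxidises succinate semialdehyde, and PYCRL, a pyrroline-5-carboxylate reductase, rose by 0.85 and 0.75 on the log2 scale (edgeR adjusted p = 0.0186 and 0.00968).

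Of 22 tested genes of branched-chain breakdown, 3 rose and 1 fell. MCCC2, a subunit of the carboxylase of the leucine path, had 95.3, 91.6 and 96.0 CPM across clone 2 and clone 6 replicates 1 and 2, against 62.0 and 60.7 CPM in wild-type replicates 1 and 2. HSD17B10, a dehydrogenase of the isoleucine path, averaged 89.1 ± 2.02 CPM in edited (SD, n = 3) and 60.7 ± 1.28 CPM in wild-type libraries (SD, n = 2). Both were well separated, at log2 fold changes of 0.62 (SE 0.0848, edgeR adjusted p = 0.00505) and 0.56 (SE 0.0847, edgeR adjusted p = 0.00733). PCCB, a subunit of propionyl-CoA carboxylase, rose by 0.49 (edgeR adjusted p = 0.0485), and IVD, which oxidises isovaleryl-CoA, fell by 0.42 on the log2 scale (edgeR adjusted p = 0.0302). The cytosolic transaminase BCAT1 had 661, 649.9 and 1028 CPM in edited libraries, against 722 and 669.5 CPM in wild type, with clone 6 replicate 2 alone above the rest. Of 7 further carriers tested, none was called.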

How the data were processed

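Illumina HiSeq sequencing of total RNA is recorded in the labels' protocols. Each library came as 1 deposited file of raw counts, as whole reads for each Ensembl gene. Trimmomatic, STAR, HTSeq and the build hg19 (GRCh37) are named, without versions, per the submitters' processing notes. No source used here states the annotation release or the strand setting. Of 63677 listed genes, 5772 had empty values and were left out, and 0 entries named no gene. Where a symbol had several identifiers, the one with most reads was used.

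Groups followed the clone labels. Counts were fitted in R 4.3.3 with edgeR 4.0.16 (TMM scaling, default filterByExpr on 3 groups, quasi-likelihood F test), over 16471 genes with Benjamini-Hochberg adjustment at 0.05. SEs were derived from the fold change and its F value. CPM used TMM-scaled library sizes, and log2 CPM a prior count of 2. DESeq2 1.42.0 was an alternative. Exon lengths, overlaps and gene order came from GENCODE 29 (GRCh38), joined by identifier, and no coordinates were converted. The genes, lists and tests were chosen with earlier results of these data known. All 31 genes are accounted for, and up to 4 called genes per further list, by absolute fold change, are named with BCAT1, which was added after its values were seen. Counts limit precision: 27 of the 31 genes had at least 200 reads in every library.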

Additional observations from a re-analysis of the deposited data

How the results depend on the processing

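The genotype calls rest on 5 libraries, and leaving out single libraries moved them most. The count of listed genes higher in edited cells ranged from 0 to 9, that of genes lower from 0 to 8 and that of all called genes from 500 to 5971, against 6, 5 and 2822. With clone 2 and clone 6 replicate 1 summed these counts were 2, 1 and 1520. A covariate for the ribosomal RNA share left 3 listed genes higher. Without a filter on low counts 4274 genes were called in all. In clone 6, the 2 called genes became 4 with DESeq2, 9 without a filter and 0 to 12 when single libraries were left out. In clone 2, the 1 called gene became 3 with DESeq2, 7 without a filter and 0 to 11 when single libraries were left out. Between the clones the count of listed genes was 0 to 3. The share of all genes called in the single-clone and between-clone alternatives is not given, and the cause of these moves was not tested. All 11 genotype calls held under RLE and upper-quartile scaling, DESeq2, a filter of 1 CPM, the replicate block and without ribosomal and mitochondrial genes, and BCKDHB lost its call without a filter, where GOT1 and SUCLG2 gained one. No called gene changed sign in its 14 alternatives, and 6 genes that were not called did.

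Replicate numbers are shared by wild type and clone 6, but the labels do not say that they mark a batch. Same-numbered deviations correlated at r = 0.172 across 16471 genes, which are not independent replicates, over 2 pairs, too few to treat the numbers as pairs. With the replicate block 4499 genes were called in all, 8 listed genes were higher (GLUD1 and GOT1 added) and 5 lower, and 9 listed genes were called in clone 6.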
